A study of Rattus norvegicus with 6 samples.

Results

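Described here are genes of the cell cycle and of the p53 response in rat pancreas, 38 genes chosen by name and sorted by role into DNA replication (12), mitosis (13), cyclins (8) and p53 targets (5). By exact gene name, 37 of the 38 were found among the 34001 genes of the table; Ccnb2 was not analysed here. The samples were whole-gland RNA of 6 rats of the outbred Sprague-Dawley stock, 2 in each of 3 groups, all killed 24 h after the operation. In the control group the abdomen was opened, the gland was turned over with swabs and 1 ml of saline went into the tail vein, so that the controls had surgery too. Rats labelled TP, for traumatic pancreatitis, had the gland struck and squeezed by an impactor over 3 cm2 at 10 kg, and were given saline. The TP+hucMSC-Exs group had the same injury and received 10 μg of exosomes per 100 g through the tail vein; exosomes are small vesicles that cells shed, here mesenchymal stem cells of human umbilical cord. No uninjured rats given exosomes are among the samples, and age and sex are not in the labels used here. Values are TPM, transcript levels that are corrected for gene length and add up to the same amount in every library. They allow levels to be compared between genes but keep no sequencing depth; depth was therefore unknown. In whole tissue, more cells of a type and more RNA per cell cannot be told apart.

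A cell that divides first licenses its replication origins with the MCM2-7 helicase, loaded by Cdc6 and Cdt1, then copies its DNA with PCNA as the sliding clamp, and then builds a spindle under Cdk1 and cyclin B, Plk1 and the Aurora kinases. D cyclins open this sequence by driving the phosphorylation of RB, which frees E2F factors to switch on the replication genes, while the mitotic genes are switched on later through the MuvB and FOXM1 complexes. The transcription factor p53 answers DNA damage and other stress by inducing Cdkn1a, the CDK inhibitor p21, along with Gadd45a, the ubiquitin ligase Mdm2 that in turn degrades p53, Ccng1 (cyclin G1) and the death-promoting Bax. Adult acinar cells, the enzyme-producing cells of the pancreas, seldom divide, and replication can resume in them after injury.

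Genes of the cell cycle classes and p53 targets are known for different regulatory letters near their start sites, and a promoter of each kind is printed here because the classes also differed in level. RefSeq promoters on build GRCr8, 250 bases before to 50 bases after the start, were matched to 26 of the 37 members. The E2F letters TTTGGCGC or TTTCGCGC, on either strand, stood in 7 of 9 replication promoters, in 1 of 10 mitotic promoters (Cdk1), and in 0.792% of all 33469 promoters. The cell cycle homology region TTTGAA, on either strand, stood in 7 of 10 mitotic promoters and 1 of 9 replication promoters, against 18.3% of all. The CCAAT box, on either strand, was found in every class: it stood in 7 of 10 mitotic, 6 of 9 replication, 2 of 3 cyclin and 3 of 4 p53 target promoters, against 37.5% of all. The p53 half-site stood in 3 of 4 p53 target promoters (Cdkn1a, Ccng1 and Gadd45a), in 1 of 10 mitotic promoters (Bub1b) and in 0 of 9 replication promoters, against 7.98% of all. These matches are letters in a window, not measured binding. In the lines below capitals mark the E2F letters and CCAAT boxes in Mcm5, those and TTTGAA in Cdk1, TTTGAA and CCAAT boxes in Cdc20, and only the half-site in Cdkn1a and Ccng1, so that the CCAAT boxes of Ccng1 are in lower case; in Mcm5 the E2F letters of both strands overlap in 1 run.
Mcm5, chr19:13488563-13488862, plus strand: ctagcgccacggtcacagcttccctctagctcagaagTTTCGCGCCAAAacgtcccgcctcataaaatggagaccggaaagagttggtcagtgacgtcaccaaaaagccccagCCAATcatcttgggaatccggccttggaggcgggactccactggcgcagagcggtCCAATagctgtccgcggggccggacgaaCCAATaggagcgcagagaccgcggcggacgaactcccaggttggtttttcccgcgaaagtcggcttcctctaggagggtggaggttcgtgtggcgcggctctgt
Cdk1, chr20:19265043-19265342, plus strand: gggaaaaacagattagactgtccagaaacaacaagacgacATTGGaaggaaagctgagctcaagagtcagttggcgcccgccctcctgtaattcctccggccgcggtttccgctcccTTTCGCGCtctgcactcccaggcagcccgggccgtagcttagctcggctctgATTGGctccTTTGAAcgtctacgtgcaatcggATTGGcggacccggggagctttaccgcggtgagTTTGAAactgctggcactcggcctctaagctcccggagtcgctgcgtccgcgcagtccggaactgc
Cdc20, chr5:137255750-137256049, minus strand: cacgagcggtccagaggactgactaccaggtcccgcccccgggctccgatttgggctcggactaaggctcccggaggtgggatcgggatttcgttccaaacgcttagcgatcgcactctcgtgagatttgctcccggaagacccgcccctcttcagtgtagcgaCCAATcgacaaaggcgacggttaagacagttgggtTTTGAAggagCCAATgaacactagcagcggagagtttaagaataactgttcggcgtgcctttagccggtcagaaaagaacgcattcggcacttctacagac
Cdkn1a, chr20:7150682-7150981, plus strand: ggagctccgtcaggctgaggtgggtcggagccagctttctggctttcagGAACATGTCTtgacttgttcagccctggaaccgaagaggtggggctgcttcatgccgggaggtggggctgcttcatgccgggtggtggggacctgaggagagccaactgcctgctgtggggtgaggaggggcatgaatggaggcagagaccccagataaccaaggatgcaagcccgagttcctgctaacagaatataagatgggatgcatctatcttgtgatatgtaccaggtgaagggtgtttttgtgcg
Ccng1, chr10:25684827-25685126, minus strand: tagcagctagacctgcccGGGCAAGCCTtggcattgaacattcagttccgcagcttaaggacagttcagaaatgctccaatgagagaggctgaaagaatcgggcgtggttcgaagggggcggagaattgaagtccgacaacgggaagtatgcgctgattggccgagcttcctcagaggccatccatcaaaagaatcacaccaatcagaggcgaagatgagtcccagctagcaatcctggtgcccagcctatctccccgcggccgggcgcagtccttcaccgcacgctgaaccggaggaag

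The members were scarce in the control gland and abundant in 1 injured library. Of the 37 genes, 27 stood below 1 TPM in control replicate 1 and 17 in control replicate 2, 20 in TP replicate 1, none in TP replicate 2, and 15 and 12 in the exosome-treated pair. Across members the median level was 0.24 and 1.31 TPM in the controls, 0.85 TPM in TP replicate 1, 30.5 TPM in TP replicate 2, and 1.73 and 2.09 TPM in the treated libraries. TP replicate 2 was the highest of the 6 libraries for 35 of 37 members, Cdkn1a and Ccng1 being the exceptions. This was no feature of the cell cycle alone, since 91.3% of the 11477 genes tested were also highest there. The median gene of TP replicate 2 lay 3.00 (log2) above the control mean, that of TP replicate 1 at 0.00, and those of the treated libraries at 0.97 and 1.22. Log2 values here are of TPM + 0.5, an offset that makes differences of scarce genes smaller.

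**Figure D1:**
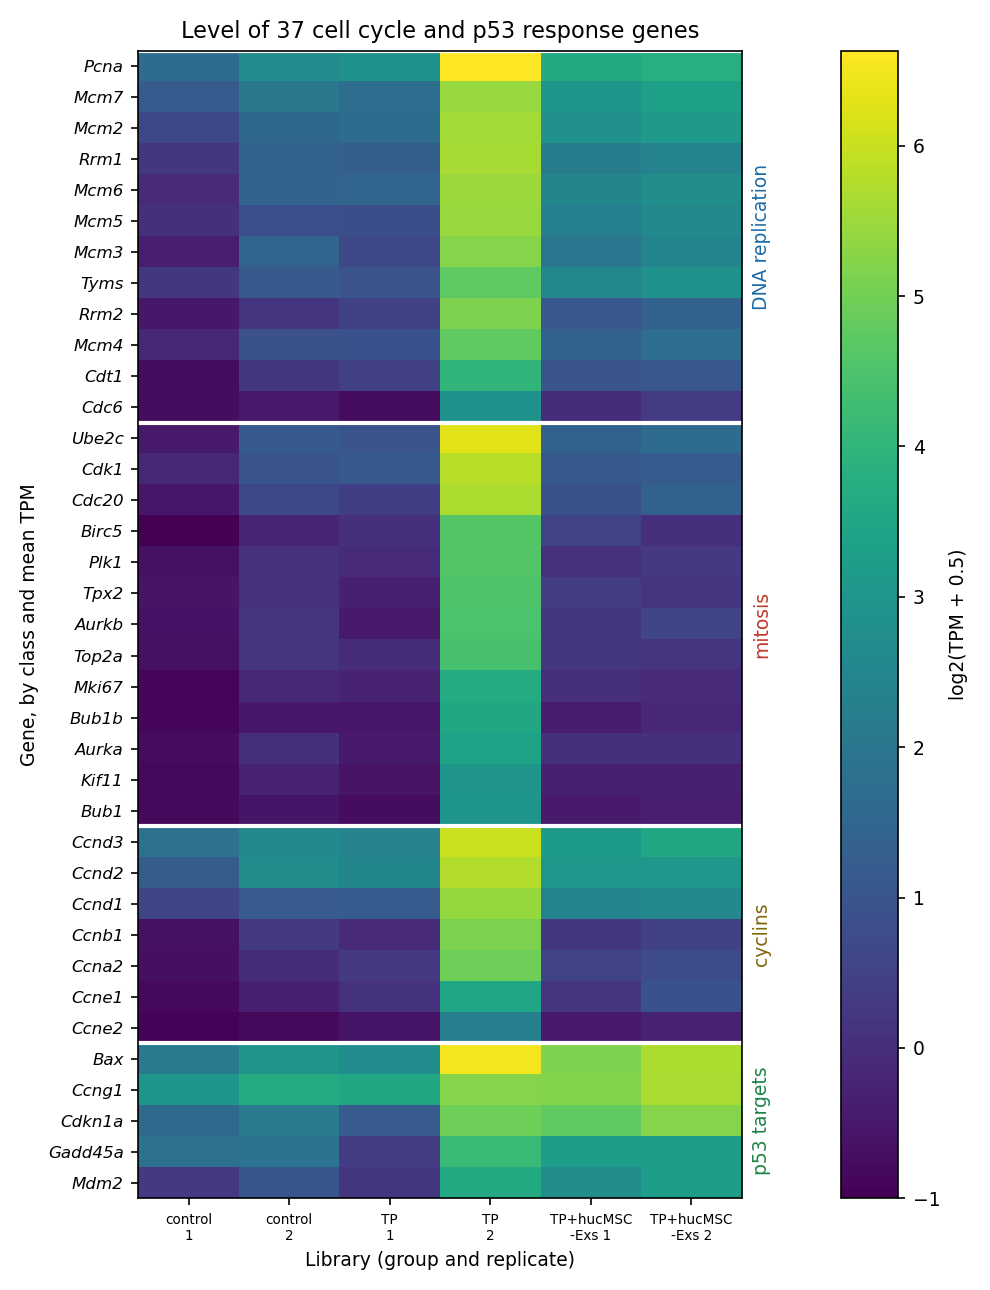
Level of each of the 37 genes as log2(TPM + 0.5), by colour, in the 6 libraries (columns), with genes grouped by class and ordered by mean TPM. TP replicate 2 is the brightest column for every gene but Cdkn1a and Ccng1, which are highest in a treated library.

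**Figure D2:**
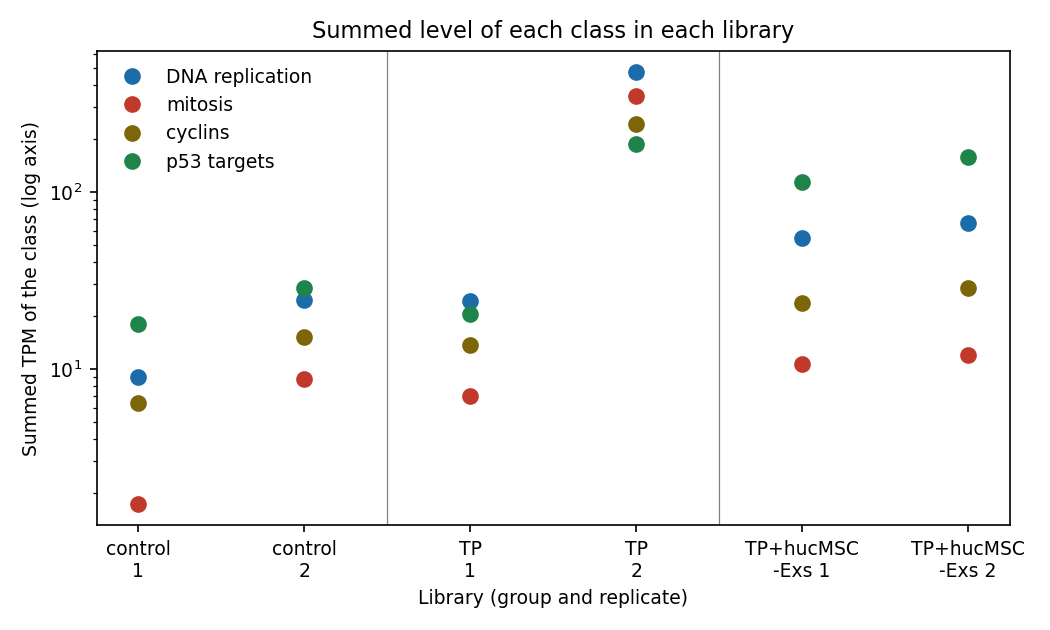
Summed TPM of each class (log axis) in each of the 6 libraries, 1 point per class and library. The p53 targets sum to 114 and 156 TPM in the treated libraries against 18.0 and 28.5 TPM in the controls, and the mitotic genes to 10.7 and 12.1 TPM against 1.73 and 8.73 TPM.

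Among the DNA replication genes, the class summed to 8.97 and 24.6 TPM in the controls, 24.0 and 473 TPM in the TP libraries, and 54.5 and 66.9 TPM in the treated libraries. Pcna (ENSRNOG00000021264), the clamp that holds DNA polymerase on its template, stood at 2.66 and 5.95 TPM in the controls, 7.03 and 98.6 TPM in TP, and 12.2 and 13.3 TPM in TP+hucMSC-Exs. Mcm2 (ENSRNOG00000016316), a helicase subunit, stood at 1.09 and 2.47, 2.74 and 47.0, and 6.74 and 8.13 TPM in the same order. Both treated libraries lay above both controls for each of the 12 genes of the class, as they did for 86.9% of all genes tested. They also lay between the TP libraries for each, an order that the median gene of the libraries shared. Mcm7 (ENSRNOG00000001349), another subunit of that ring, stood at 1.84 and 3.69 TPM in the controls, 2.91 and 43.3 TPM in TP, and 7.54 and 9.67 TPM in the treated group. The 6 subunits Mcm2 to Mcm7 summed to 4.56 and 13.3, 11.7 and 242, and 29.3 and 37.4 TPM. Their mean sum was 33.3 ± 5.69 TPM (SD, n = 2) with exosomes against 8.93 ± 6.17 TPM (SD, n = 2) in the controls, a ratio of 3.74. Rrm2 (ENSRNOG00000054286), the subunit of ribonucleotide reductase that is made in S phase, was scarcer, at 0.20 and 0.63 TPM, 0.93 and 34.9 TPM, and 1.60 and 2.09 TPM. Tyms, thymidylate synthase, had the ratio of means 5.11 between treated and control libraries (5.28 and 6.93 against 0.69 and 1.70 TPM). The origin-licensing genes Cdc6 and Cdt1 had the lowest means of the class, and Cdc6 was below 1 TPM in every library but TP replicate 2 (0.09 to 0.75 TPM there, 6.85 TPM in TP replicate 2).

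The cyclins divided by phase. The D cyclins, which couple growth signals to entry into the cycle, were present in every library. Ccnd3 (ENSRNOG00000050258) stood at 3.13 and 5.58 TPM in the controls, 4.75 and 64.7 TPM in TP, and 8.44 and 11.5 TPM in TP+hucMSC-Exs. Ccnd2 (ENSRNOG00000057710) stood at 1.90 and 6.17, 5.16 and 53.3, and 7.88 and 7.87 TPM. Ccnd1 (ENSRNOG00000020918), often called the growth-factor sensor of the family, stood at 1.02 and 1.79, 1.84 and 42.8, and 4.84 and 5.51 TPM. The treated libraries were thus close to each other and above the controls for all 3, with ratios of means of 2.29, 1.95 and 3.68. They lay above both controls for 86.9% of all genes tested too. The median log2 difference of the 3 from the controls was 1.14, beside 1.09 for all genes. Ccna2 (ENSRNOG00000015423), cyclin A of S phase and early mitosis, stood at 0.12 and 0.48 TPM in the controls, 0.70 and 30.5 TPM in TP, and 0.99 and 1.17 TPM in the treated group. The mitotic cyclin gene Ccnb1 overlapped between treated and control libraries, at 0.67 and 0.92 TPM against 0.13 and 0.74 TPM, and reached 34.7 TPM in TP replicate 2. Of the E cyclins, which start S phase, Ccne1 stood at 0.06 to 1.41 TPM outside TP replicate 2 and Ccne2 at 0.03 to 0.33 TPM. Ccne2 was the 1 member in the table that had a mean under the filter of 1 TPM and so went untested.

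Mitotic genes were near the floor of the table except in TP replicate 2. Of the 13, 9 stayed below 1 TPM in all of the other 5 libraries, among them the proliferation marker Mki67 (0.05 to 0.54 TPM elsewhere, 12.6 TPM in TP replicate 2) and Plk1 (0.14 to 0.70 TPM elsewhere, 23.7 TPM). Ube2c (ENSRNOG00000015131), which feeds ubiquitin to the anaphase-promoting complex, stood at 0.24 and 1.75 TPM in the controls, 1.51 and 77.9 TPM in TP, and 2.11 and 2.71 TPM in TP+hucMSC-Exs. Cdk1 (ENSRNOG00000000632), the kinase that drives entry into mitosis, stood at 0.41 and 1.46, 1.66 and 55.6, and 1.73 and 1.83 TPM. Cdc20 (ENSRNOG00000028415), the activator of the anaphase-promoting complex, stood at 0.19 and 1.09, 0.83 and 51.7, and 1.35 and 2.06 TPM. The controls differed from each other by more than control replicate 2 differed from the treated libraries for each of these 3 genes in ratio. All 13 genes were lowest in control replicate 1, and the class summed to 1.73 and 8.73 TPM in the controls. The mean sum was 11.4 ± 0.941 TPM (SD, n = 2) with exosomes against 5.23 ± 4.95 TPM (SD, n = 2) in the controls, a ratio of 2.18. TP replicate 2 exceeded TP replicate 1 by 33.5 times (Cdk1) to 94.4 times (Aurkb, the Aurora kinase of the centromere), but most of these genes were below 1 TPM in TP replicate 1, and 10 of the 13 passed the filter only through TP replicate 2. On the scale of TPM + 0.5 the median ratio between the TP libraries was 16.6 for all cell cycle members, 13.6 for p53 targets and 8.19 for all genes tested.

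The p53 targets were higher in both treated libraries than in TP replicate 1, and 3 of the 5 were highest in TP replicate 2. The first trait is shared. For 31 of the 32 cell cycle members the treated libraries lay between the TP libraries, and so above TP replicate 1. The share of all genes that did so is not given here. Cdkn1a (ENSRNOG00000000521), the p21 inhibitor that halts CDKs, stood at 2.64 and 3.90 TPM in the controls, 1.78 and 30.6 TPM in TP, and 26.7 and 37.5 TPM in TP+hucMSC-Exs, a ratio of means of 9.82 between treated and control libraries. Bax (ENSRNOG00000020876), which permeabilises mitochondria in apoptosis, stood at 3.97 and 7.26, 6.05 and 89.3, and 35.1 and 51.2 TPM, a ratio of 7.69. Mdm2 (ENSRNOG00000006304) stood at 0.73 and 1.55, 0.65 and 12.2, and 6.14 and 9.04 TPM, a ratio of 6.66. For all 5 genes both treated libraries lay above TP replicate 1 and above both controls, the latter also true of 86.9% of all genes tested. Ccng1 (ENSRNOG00000003256) was the most abundant of the class in the controls, at 7.56 and 12.6 TPM, with 11.3 and 37.6 TPM in TP and 36.9 and 49.7 TPM with exosomes. Gadd45a, which slows the cycle after DNA damage, stood at 3.14 and 3.25 TPM in the controls, 0.75 and 17.5 TPM in TP, and 9.22 and 8.96 TPM with exosomes. TP replicate 1 lay below both controls for Cdkn1a, Gadd45a and Mdm2 and within their range for Bax and Ccng1. None of the 32 other members lay below both controls there, but all 32 were lowest in control replicate 1. Of these, 17 were below 1 TPM in both controls, which left little room to fall. The share of all genes below both controls in TP replicate 1 is not given here, so the contrast does not set the class apart. The class summed to 20.5 TPM in TP replicate 1 and 187 TPM in TP replicate 2.

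**Figure D3:**
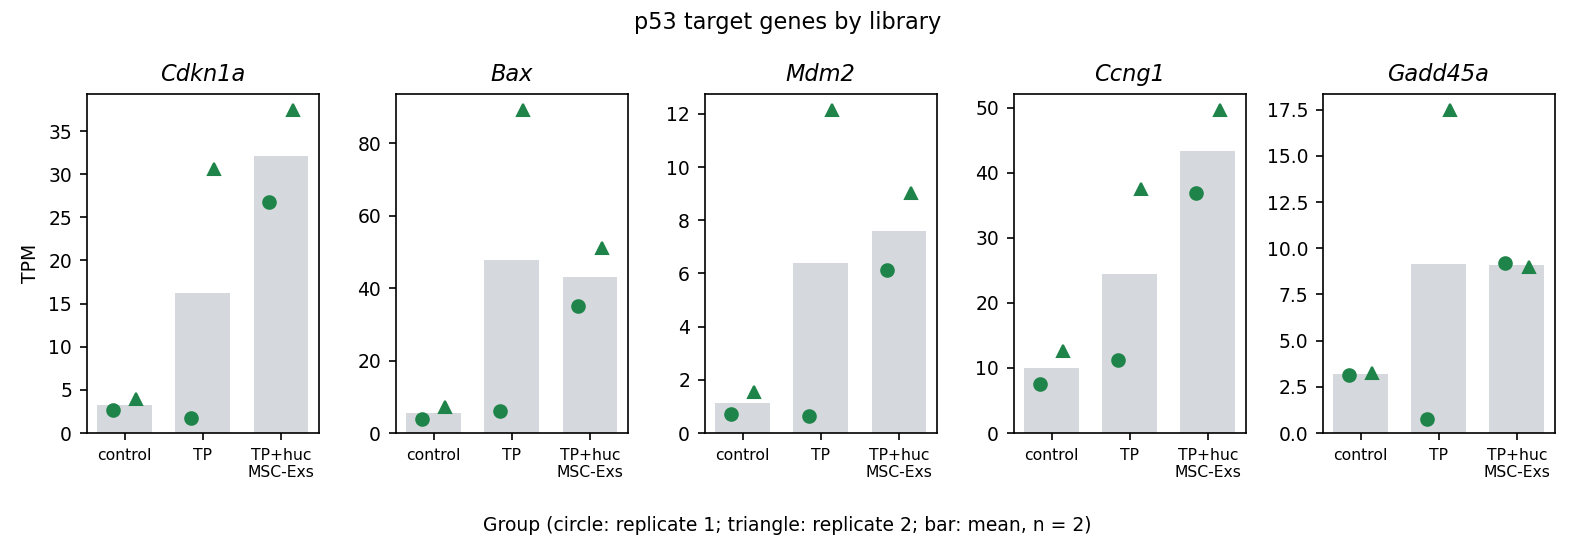
TPM of the 5 p53 targets by group; circles are replicate 1, triangles replicate 2 and bars the mean of 2. Both treated libraries exceed both controls in each panel, and the TP bars average a library near the controls with one far above them.

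The TP group was compared with the controls to ask what the crush changed. All 31 tested cell cycle members had a fitted log2 fold change above that of the median gene (1.495), and 4 of 5 p53 targets lay below it. The class medians were 2.49 for replication, 2.36 for mitosis, 2.42 for cyclins and 1.18 for p53 targets. With limma, 0 of 36 members passed an adjusted p of 0.05 (Benjamini-Hochberg over 11477 genes), where 0.0523% of all genes did. The largest was Ube2c, at 3.28 ± 1.43 (SE; adjusted p = 0.555). At an unadjusted p below 0.05, 7 of 36 lay higher (Ube2c, Cdk1, Cdc20, Rrm2, Ccna2, Mcm6 and Birc5) against 3.96% of all genes, and 0 lay lower, against 0.105%. The libraries did not overlap, higher in TP, for 11 of 36, against 23.1% of all genes, and lower for 0, against 1.09%. These counts rest on TP replicate 2, which also carried 15 of the 36 over the filter, since their mean over the other 5 libraries was below 1 TPM. Without it 0 of 36 passed (0.174% of all genes) and the class medians were 0.53, 0.19, 0.41 and -0.47; without TP replicate 1 all 36 tested passed, where 93.3% of all genes did.

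The TP+hucMSC-Exs group was compared with the TP group to ask what exosomes changed in injured gland. The treated libraries lay between the TP libraries for 34 of 37 members, so the sign of a group difference depends on which TP library weighs more. That order is not particular to the members. The median gene stood at 0.00 in TP replicate 1, 0.97 and 1.22 in the treated libraries and 3.00 in TP replicate 2. The share of all genes lying between is not given here. All 31 tested cell cycle members had a negative fitted difference, from -2.27 (Cdk1) to -0.12 (Tyms). All 5 p53 targets had a positive one, from 0.82 (Bax) to 1.93 (Cdkn1a). Of the 36 tested, 15 passed the filter only through TP replicate 2, which favours a negative difference, and 0 of these were p53 targets. The share of all genes with either sign is not given here. The median of all genes was -0.38. With limma, 0 of 36 members passed (0.0697% of all genes did), and 0 had an unadjusted p below 0.05 in either direction, against 0.758% of all genes higher and 0.566% lower. No tested member had groups that did not overlap (5.09% of all genes higher, 1.62% lower). Cdk1 had a difference of -2.27 ± 1.43 (SE; unadjusted p = 0.111) and Cdkn1a of 1.93 ± 1.42 (SE; unadjusted p = 0.174). Without TP replicate 2, 2 of 36 members were higher, Cdkn1a by 3.82 ± 0.40 (SE; adjusted p = 0.0373) and Gadd45a, where 1.91% of all genes passed; the replication, mitotic and cyclin medians then turned positive (1.08, 0.27 and 0.50, beside 1.10 for all genes). Without TP replicate 1, 31 of 36 were lower, none of them a p53 target, where 83.1% of all genes passed.

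The TP+hucMSC-Exs group was compared with the controls, which it shares with the first comparison, to ask how treated injured gland differed from sham-operated gland. The p53 targets lay furthest above the controls, with a median log2 difference of 2.33, followed by replication genes at 1.54, cyclins at 1.10 and mitotic genes at 0.48, beside 1.09 for all genes. Cdkn1a had 3.11 ± 1.42 (SE; adjusted p = 0.7995), Bax 2.87 ± 1.40 (SE) and Mdm2 2.33 ± 1.42 (SE). With limma, 0 of 36 passed (0.209% of all genes did), and 2 of 36, Cdkn1a and Bax, had an unadjusted p below 0.05 in the higher direction, against 2.85% of all genes; 0 were lower, against 0.0958%. The libraries did not overlap, higher with exosomes, for 33 of 36 (all but Plk1, Kif11 and Ccnb1), but neither did they for 86.9% of all genes, and none was lower, against 1.63%. The standard errors carry the gap between the TP libraries, which this comparison does not use. Fitted on these 2 groups alone, 19 of 36 were higher where 52.8% of all genes passed: 10 of 12 replication genes, 0 of 13 mitotic genes, 4 of 6 cyclins and 5 of 5 p53 targets (Cdkn1a adjusted p = 0.0106). Without TP replicate 2 the count was 18 (52.4% of all genes) and without TP replicate 1 it was 17 (52.5%). With libraries scaled to a common median ratio and TP replicate 2 left out, a setting chosen after seeing the data, 1 of 36 passed, Cdkn1a at 1.71 ± 0.15 (SE; adjusted p = 0.0487), where 1.29% of all genes did.

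Relative to the median gene of its own library, each class kept its side in both treated libraries apart from the cyclins. The p53 targets lay 1.09 and 1.37 above it (median, log2), replication genes 0.46 and 0.44 above, and mitotic genes at -0.50 and -0.69. The cyclins lay at -0.04 and 0.00. In the TP libraries the p53 targets lay at -0.47 and -0.01. The replication and mitotic genes lay at 0.53 and 0.19 in replicate 1 and at 1.45 and 1.69 in replicate 2. The values of replicate 2 are partly selected, since 15 tested members, 0 of them p53 targets, passed the filter only through that library. The difference between the class median and the median gene, for treated against control libraries, was recomputed under all 17 alternatives of processing. Some of these cannot move it: no variance trend, the replicate block, the compared groups alone, and a TP library left out without rescaling. Over the alternatives it ranged from 0.99 to 1.65 for p53 targets and from 0.20 to 0.87 for replication genes. For mitotic genes it ranged from -0.69 to -0.08, the latter with scaling to a common median ratio and TP replicate 2 left out. It was -0.61 with the offset of 0.5 and -0.40 with an offset of 0.1. The size of the mitotic value thus depended on the offset, and 9 of the 13 genes stayed below 1 TPM outside TP replicate 2. In summed TPM the class had a ratio of 2.18 between treated and control libraries. For cyclins the difference ranged from -0.27 to 0.39, so cyclins had no fixed side.

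**Figure D4:**
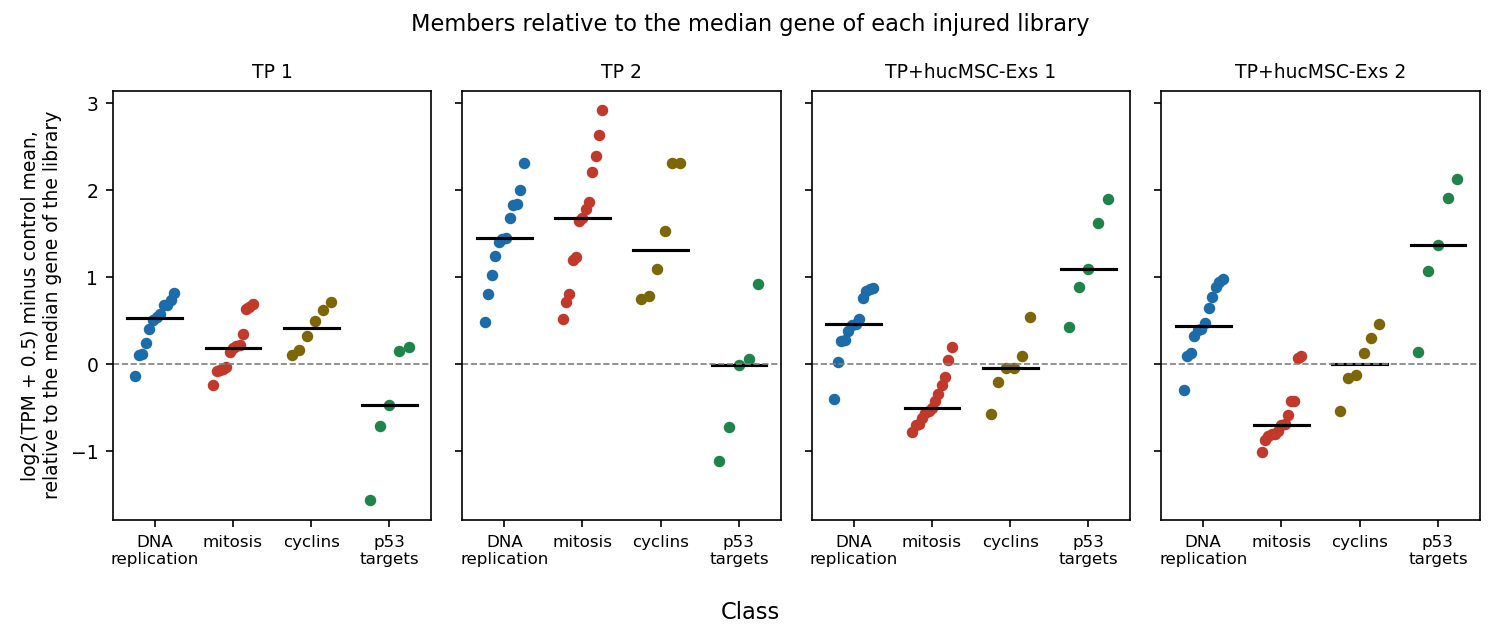
Each tested member as its log2(TPM + 0.5) minus the control mean, relative to the median gene of the same library (dashed line at 0), in the 4 injured libraries; black bars are class medians. By class median the cell cycle classes lie above the p53 targets in TP replicate 2. The p53 targets lie above the other classes in both treated libraries. Of the tested members, 15 passed the filter only through TP replicate 2, 0 of them p53 targets, so the height of these 15 there is partly selected. Single genes overlap: Gadd45a, at 0.42 and 0.14 in the treated libraries, lies below Mcm5, at 0.88 and 0.94.

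Ratios within a library, which a library-wide scale cannot move, set the classes against each other directly. The summed p53 targets were 10.4 and 3.27 times the summed mitotic genes in the controls, 2.92 and 0.539 times in TP, and 10.6 and 13.0 times with exosomes. Cdkn1a stood at 6.44 and 2.67 times Cdk1 in the controls, at 1.07 and 0.551 times in TP, and at 15.5 and 20.5 times with exosomes. The treated libraries thus had the highest Cdkn1a per Cdk1 and both TP libraries the lowest, without overlap between any of the groups. Of all tested members, however, Cdkn1a had the most positive and Cdk1 the most negative fitted difference from TP (1.93 and -2.27). The separation of their ratio is therefore no independent support. With 2 libraries against 2 an exact permutation test cannot give a two-sided p below 0.333. The summed p53 targets were 2.01 and 1.16 times the summed replication genes in the controls, 0.85 and 0.40 times in TP, and 2.09 and 2.34 times with exosomes. For both ratios of class sums the treated libraries also lay above both controls. The lower of them was close to control replicate 1, at 10.6 against 10.4 over mitotic genes and 2.09 against 2.01 over replication genes.

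Other genes of these pathways were taken as 6 lists, 144 genes in the table, of which 136 were highest in TP replicate 2 and 0 passed in limma in any comparison. Among 26 other p53 targets, 22 were tested, and 20 of those had both treated libraries above both controls, close to the 86.9% of all genes tested. Phlda3, an inhibitor of Akt, had the smallest p against controls, at 24.8 and 32.9 TPM with exosomes against 1.65 and 2.94 TPM, with 2.40 and 195 TPM in TP (log2 difference 3.42 ± 1.42 (SE); unadjusted p = 0.0158). Btg2, an antiproliferative gene, stood at 62.0 and 95.3 TPM with exosomes against 16.7 and 24.3 TPM in the controls and 14.3 and 35.6 TPM in TP. Rps27l, a ribosomal protein paralogue, was the most abundant, at 218 and 312 TPM against 85.7 and 126 TPM. The list was mixed, however, with a median difference of 1.34 from the controls beside 1.09 for all genes. Sesn1, a stress-induced inhibitor of mTORC1 signalling, stood at 3.36 and 3.62 TPM with exosomes, below the controls at 4.91 and 8.31 TPM. The damage-signalling list, 8 genes with 5 tested, had a median of 0.83 from the controls, below that of all genes. Its H2ax, a histone variant, stood at 2.92 and 3.76 TPM in the controls, 2.76 and 107 TPM in TP, and 7.76 and 8.81 TPM with exosomes.

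Further lists extended the cell cycle classes. Of 35 origin and fork genes 27 were tested; both treated libraries lay above both controls for all 27, beside 86.9% of all genes, and they had a median difference of 1.13, beside 1.09 for all genes. Lig1, the ligase of replication, stood at 5.88 and 6.20 TPM with exosomes against 0.70 and 2.15 TPM, and Tk1, thymidine kinase, at 2.96 and 2.92 TPM against 0.51 and 1.16 TPM, with 1.48 and 48.7 TPM in TP. Rpa3, a subunit of the single-strand binding complex, stood at 4.61 and 7.85 TPM against 1.43 and 3.45 TPM. Among 47 spindle and kinetochore genes, 39 tested, the median was 0.70, with 31 of 39 below the median gene. Spc24 of the kinetochore stood at 1.16 and 0.90 TPM with exosomes against 0.44 and 1.21 TPM in the controls and 0.63 and 41.1 TPM in TP, and Cks2, a small partner of CDKs, at 2.41 and 1.97, 0.19 and 1.16, and 1.01 and 43.8 TPM. Bub3 of the spindle checkpoint stood at 10.4 and 12.8 TPM with exosomes against 2.78 and 5.51 TPM in the controls. Nek2, a centrosome kinase, was the only gene of this list not highest in TP replicate 2, at 23.4 and 25.2 TPM with exosomes, 15.4 TPM in TP replicate 2 and 8.07 to 11.3 TPM in the other 3 libraries; Wee1, the kinase that holds Cdk1 inactive, stood at 5.62 and 5.71 TPM with exosomes against 1.40 and 1.73 TPM. Of 22 E2F, RB and DREAM regulators, 16 tested with a median of 1.00, Cdk4 stood at 34.2 and 50.8 TPM with exosomes against 9.80 and 13.7 TPM, and Tfdp1, the partner of E2F factors, at 6.37 and 7.94 against 1.99 and 3.82 TPM. The mitotic activators Foxm1 and Mybl2 stayed at 0.51 and 0.31 TPM and 0.91 and 1.48 TPM with exosomes, against 8.86 and 10.6 TPM in TP replicate 2. Among 6 other CDK inhibitors, 3 tested, Cdkn1b (p27) stood at 5.83 and 7.36 TPM with exosomes against 2.05 and 5.72 TPM, and Cdkn2c (p18) at 0.70 and 0.69 TPM against 0.18 and 0.75 TPM, with 36.7 TPM in TP replicate 2.

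Markers of cell types also differed between libraries, some with these genes and some not, and their part in the results was not tested. The 25 genes listed as acinar enzymes summed to 190740 TPM in TP replicate 2, their lowest, against 563670 to 780559 TPM in the other 5 libraries. Prss1, a trypsinogen, stood at 44279 TPM there against 139717 to 209093 TPM in the other 5, and the acinar factor Ptf1a at 9.51 TPM against 13.4 to 34.5 TPM. Cpa3 of that list was highest in TP replicate 2, at 28.0 TPM against 0.08 to 0.42 TPM. It was scarce beside Cpa1, at 8402 to 29103 TPM, and is not read here as an acinar gene. Rnase1 stood at 0 in TP replicate 2 and in both treated libraries, and at most at 0.78 TPM elsewhere. The 13 mitochondrially encoded genes summed to 45840 TPM in TP replicate 2 against 5822 to 9277 TPM in the others. In TP replicate 2 the 7 fat-cell markers summed to 4470 TPM against 22.3 to 43.7 TPM in the other 5 libraries, with none at 0, and the 6 fibroblast markers to 4389 TPM against 30.5 to 150 TPM. The 8 macrophage markers, 7 of them above 0 in that library, summed to 4347 TPM there, to 384 and 728 TPM in the treated libraries, to 8.63 and 117 TPM in the controls, and to 35.6 TPM in TP replicate 1. The 7 neutrophil markers followed, at 508 TPM in TP replicate 2, 57.9 and 107 TPM in the treated libraries and at most 3.21 TPM elsewhere. The T-cell markers summed to 135 TPM in TP replicate 2, 45.7 TPM in control replicate 2 and at most 27.7 TPM elsewhere. Within that list Cd8a, a co-receptor of killer T cells, stood at 53.3 TPM in TP replicate 2, 11.5 and 20.5 TPM in the treated libraries and at most 2.92 TPM elsewhere, while Cd3e, of the T-cell receptor complex, stood at 6.47 TPM in control replicate 2, 6.02 TPM in TP replicate 2 and at most 0.49 TPM elsewhere. The B and plasma cell markers summed to 27.4 TPM in control replicate 2 and 35.7 TPM in TP replicate 2, were at 0 in TP replicate 1 and stood at 0.24 TPM in control replicate 1. Jchain, the joining chain of antibodies, made up 8.76 and 31.4 TPM of the first 2 sums, and Ms4a1, the B-cell surface protein CD20, 2.10 and 0.55 TPM. The 7 duct markers, with none at 0, summed to 571 and 718 TPM in the treated libraries against 58.8 to 99.5 TPM in the other 4. Krt8 alone made up 412 and 519 TPM of the treated sums. Muc1 was highest in TP replicate 1, at 33.5 TPM against 31.3 and 28.1 TPM with exosomes. The other markers were highest with exosomes, but Sox9 and Cftr stayed below 1 TPM in all libraries. The 7 islet markers summed to 2096 and 326 TPM in the controls, 989 and 301 TPM in TP, and 2935 and 1360 TPM with exosomes.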

How the data were processed

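Gene-level TPM of 6 libraries, deposited by the authors as 1 table, were used, with gene names from that table. Per the labels' protocols, libraries were prepared from total RNA with a SMARTER mRNA-Seq kit. Aligner and quantification program: not given in the sources used here. Of the gene identifiers, 32883 are rat Ensembl and 1118 are MSTRG, yet GRCm38 and mm10, both mouse builds, are what the submitters' processing notes list; which annotation was used is not settled. Columns were assigned by name; those of the TP group also carry a number that no label explains. Each library sums to 1000000 TPM, so no counting error could be given.

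Genes with a mean of at least 1 TPM over the 6 libraries (11477) were fitted as log2(TPM + 0.5) in 1 model of 3 group means with limma 3.58.1 in R 4.3.3, with a variance trend; p-values were adjusted by Benjamini-Hochberg over all 11477 genes (threshold 0.05). The prior degrees of freedom were infinite and 3 residual degrees of freedom remained. In this fit the variance of each gene was therefore replaced by that of genes of like level, and every SE rests on that shared spread. The script was tested on simulated data. The series describes 6 rats. The p-values measure only the spread between these libraries, in the main fit as shared over genes and not as that of the single gene.

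Members and lists were chosen with earlier results of these data known. Values in all libraries are given for the 3 most abundant members of each class and, per comparison, the 3 of smallest p among those whose groups do not overlap. Of each pathway list, the 2 most abundant genes and the 1 of smallest p per comparison are named, apart from genes that are not reported here. Tyms, Cdc6, Cdt1, Ccnb1, Ccne1, Ccne2, Mki67, Plk1, Aurkb, Gadd45a, Sesn1, Cdkn2a, Prss1, Ptf1a, Cd8a, Cd3e, Jchain and Ms4a1 were chosen after their values were seen. Promoter sequences are from RefSeq (GRCr8). The 17 alternatives are described in the closing section.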

Additional observations from a re-analysis of the deposited data

How the results depend on the processing

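The number of members passing was recomputed under 17 alternatives for each comparison: pseudocounts of 0.1 and 1, no filter or a mean of at least 5 TPM, no variance trend, median-of-ratios scaling, quantile normalization, TPM rescaled without digestive enzymes, the replicate number as a block, the compared groups alone, each library left out, and, chosen after seeing the data, median-of-ratios scaling without TP replicate 2. It stayed at 0 in 44 of 51 cases. For TP+hucMSC-Exs against control it was 19 with the compared groups alone, 1 under the added setting, and 0 to 18 with 1 library left out (17 without TP replicate 1, 18 without TP replicate 2). With 1 library left out it was 0 to 36 for TP against control and 0 to 31 for TP+hucMSC-Exs against TP; where leaving a library out leaves 1 in a group, that library is assumed to vary like the others. Once 1 TP library is gone, the gap between the pair no longer counts as spread, and 0.174% to 93.3% of all genes then passed.

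Of 765 fold changes of the 15 genes given in full, 34 changed sign, and none of these genes had passed. Many of the 765 could not change. A gene's fold change is the same without the variance trend, with the replicate block, with other filters and with the compared groups alone. It is also the same when the library left out belongs to a group not compared. The 34 are therefore no measure of stability. With median-of-ratios scaling and quantile normalization, TP against control turned to -0.50 and -0.47 for Cdkn1a, -0.27 and -0.27 for Mdm2 and -0.64 and -0.66 for Ccng1, and TP+hucMSC-Exs against control to -0.22 and -0.33 for Cdk1, -0.26 and -0.32 for Ccnd2 and -0.23 and -0.25 for Ccnd3. These scalings set the median gene to about 0. Under the added setting TP against control was -0.77 for Cdkn1a and -0.53 for Mdm2, TP+hucMSC-Exs against TP 0.0779 for Mcm7 and 0.0191 for Ccnd1, and TP+hucMSC-Exs against control -0.22 for Cdk1, -0.27 for Ccnd2 and -0.23 for Ccnd3. With 1 library left out, TP against control ranged from -0.71 to 3.06 for Cdkn1a and from -0.47 to 3.00 for Mdm2. TP+hucMSC-Exs against TP then ranged from -2.59 to 1.29 for Mcm2, -2.28 to 1.41 for Mcm7, -2.90 to 0.81 for Pcna, -3.92 to 0.71 for Rrm2, -4.62 to 0.0777 for Cdk1, -4.58 to 0.71 for Cdc20, -4.76 to 0.53 for Ube2c, -4.30 to 0.39 for Ccna2, -2.93 to 1.28 for Ccnd1, -2.68 to 0.57 for Ccnd2, -2.66 to 0.98 for Ccnd3, -0.67 to 2.79 for Mdm2 and -1.07 to 2.71 for Bax; every positive end for the cell cycle genes is without TP replicate 2.

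With the replicate block 0 members passed in each comparison, as without it. Nothing in the labels pairs rats by number; deviations of same-numbered libraries correlated at 0.28 (control and TP), 0.08 (control and TP+hucMSC-Exs) and 0.14 (TP and TP+hucMSC-Exs). TPM keep no depth, so whether a value under 1 TPM rests on few reads is unknown.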

Other observations

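Of the 144 pathway genes, 8 were not highest in TP replicate 2, and 6 of these are listed as p53 targets: Aen, Btg2, Perp, Gdf15, Eda2r and Rps27l, a group singled out after its values were seen. Gdf15, a stress cytokine, stood at 10.3 and 15.2 TPM with exosomes, 0.84 and 1.41 TPM in the controls, and 1.53 and 8.81 TPM in TP. Perp, a desmosome protein of epithelia, stood at 13.3 and 14.0 TPM with exosomes, 4.13 and 5.01 TPM in the controls, 6.98 TPM in TP replicate 1 and 1.81 TPM, its lowest, in TP replicate 2. Eda2r, a receptor of the TNF family, stood at 0.99 and 2.09 TPM with exosomes and at most 0.67 TPM elsewhere. Cdkn2a, the locus of p16 and ARF, was listed at 0 in 5 libraries and at 1.53 TPM in TP replicate 2.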
